A study of Mus musculus with 12 samples.

Results

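The Toll-like receptors described here are 6 receptors of microbial molecules (Tlr1, Tlr2, Tlr3, Tlr4, Tlr6 and Tlr9), the Tlr4 co-receptor Ly96 (the gene of MD-2), the adaptor Myd88 and the kinase family genes Irak2 and Irak3. They were taken from the expression table by gene symbol alone, and all 10 were found among its 38739 symbols. All 10 also passed the filter on low values, which left 11887 genes for testing. The table holds RNA-seq of mouse bone marrow-derived macrophages (BMDMs, grown from marrow progenitors) in 12 samples, 3 for each of 4 groups: wild-type cells left in medium (WT UT), wild-type cells given lipopolysaccharide (WT LPS), and cells of cGAS knockout mice in the same conditions (cGAS-/- UT and cGAS-/- LPS). According to the methods, the donors were male C57BL/6J mice 8 weeks of age, and the knockout is carried by the whole animal on that background. The wild-type mice were bought from Nomura Siam, whereas a researcher at Aarhus University provided the knockout mice. Genotype and source of the mice therefore cannot be told apart. For E. coli LPS the methods give 150 ng/mL for 24 h, whereas the sample labels give 100 ng/mL for 1 h, so the time after LPS is uncertain. The labels also name neutrophils in the RNA extraction step. The study calls samples of a group technical replicates, so p-values measure the spread between samples, which need not be the spread between mice.

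Tlr4 binds LPS at the cell surface together with MD-2. Tlr2 pairs with Tlr1 or Tlr6 to recognise bacterial lipopeptides, while Tlr3 and Tlr9 reside in endosomes and recognise double-stranded RNA and unmethylated CpG DNA. Most of these receptors signal through Myd88, which gathers kinases of the IRAK family, and Irak3 (IRAK-M) restrains that step and is known in macrophages from LPS tolerance. cGAS, the deleted gene, is a sensor of DNA in the cytosol and not a member of this family.

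Cgas ranged from 1.19 to 3.25 TPM (transcript abundance per length and library) in WT and from 0.0703 to 0.291 TPM in cGAS-/- samples. WT LPS replicate 3 stood apart: its values summed to 709802 against 447189 to 503156 in the other 11 samples, and protein-coding genes held 18.5% of its total against 39.7% to 54.4%. The other WT LPS samples also differed from each other, with Tlr2 at 44.9 TPM in replicate 1 and 96.1 TPM in replicate 2. Of the macrophage markers, 8 of 10 are in the table, and their summed level was 17300 to 18060 TPM in WT UT, 16920 to 26830 in WT LPS, 20600 to 22460 in cGAS-/- UT and 33800 to 34260 in cGAS-/- LPS. Most of that sum was Lyz2, a lysozyme gene. Of these 8 markers 4 were called lower and 1 higher with LPS in WT cells (23.3% and 4.31% of all genes), and 3 lower and 3 higher in cGAS-/- cells (9.06% and 4.76%). Mrc1, a mannose receptor, fell by 3.41 in WT and by 3.72 in cGAS-/- cells on the log2 scale (limma adjusted p = 1.89e-05 and 1.05e-05), and Cd68 by 1.67 and 2.12 (0.00682 and 0.00228). Fcgr1, an Fc receptor, rose by 2.48 and 2.13 (limma adjusted p = 0.00145 and 0.00487), and in cGAS-/- cells Itgam rose by 1.66 (0.0184) and Lyz2 by 0.71 (0.0167). All 8 of the T and NK cell markers lay below 1 TPM in every sample. The 9 measured neutrophil markers summed to 158 to 232 TPM in WT UT, 59.7 to 374 in WT LPS, 67.4 to 142 in cGAS-/- UT and 73.2 to 95.2 in cGAS-/- LPS, most of it S100a8 and S100a9 except in WT LPS replicate 3. With LPS 3 of the 7 tested (Ngp, Elane and Ltf) were called lower and 0 higher in WT cells, and 0 lower and 2 higher in cGAS-/- cells, Camp by 2.02 (limma adjusted p = 0.0112) and Mmp8 by 0.97 (0.0264). The 8 dendritic cell markers summed to 79.6 to 132 TPM in UT and 710 to 2859 TPM in LPS samples, nearly all of it Bst2 (tetherin). Of the 3 tested, 2 were called higher and 1 lower with LPS in both genotypes: Bst2 and Xcr1 (1.08 and 0.68) rose, and Itgax fell by 2.17 and 1.46 on the log2 scale. Of the list, 5 of the 8 lay below 1 TPM in every sample. The part of these cell types in the results was not tested. In bulk RNA, fewer cells of a type and less RNA per cell cannot be told apart.

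The 4 members called higher after LPS in cGAS-/- cells (Tlr1, Tlr2, Myd88 and Irak3) are shown with the DNA around their start sites. Each sequence is the RefSeq promoter window of build GRCm38.p6 on the gene's own (minus) strand, from 250 bases before the start to 50 bases after it. Where 2 starts are given, the upstream one is printed. Capitals mark matches to the motifs searched, on either strand.
Tlr1, chr5:64933509-64933808: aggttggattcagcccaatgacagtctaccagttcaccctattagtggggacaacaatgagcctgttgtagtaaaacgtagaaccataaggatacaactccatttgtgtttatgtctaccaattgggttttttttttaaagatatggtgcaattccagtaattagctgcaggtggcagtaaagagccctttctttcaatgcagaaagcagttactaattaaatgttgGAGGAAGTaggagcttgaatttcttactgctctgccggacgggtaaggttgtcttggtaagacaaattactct
Tlr2, chr3:83841559-83841858: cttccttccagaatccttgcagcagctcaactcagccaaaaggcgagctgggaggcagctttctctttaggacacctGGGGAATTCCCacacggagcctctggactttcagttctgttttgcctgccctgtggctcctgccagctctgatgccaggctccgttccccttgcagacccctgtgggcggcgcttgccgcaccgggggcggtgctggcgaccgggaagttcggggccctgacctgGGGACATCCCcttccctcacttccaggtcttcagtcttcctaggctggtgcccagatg
Myd88, chr9:119339969-119340268: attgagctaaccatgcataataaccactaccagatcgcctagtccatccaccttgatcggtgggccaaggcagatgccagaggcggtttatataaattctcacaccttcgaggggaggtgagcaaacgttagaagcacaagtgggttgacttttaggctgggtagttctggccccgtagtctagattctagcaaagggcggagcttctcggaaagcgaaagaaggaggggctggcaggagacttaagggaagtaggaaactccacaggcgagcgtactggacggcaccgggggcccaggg
Irak3, chr10:120202081-120202380: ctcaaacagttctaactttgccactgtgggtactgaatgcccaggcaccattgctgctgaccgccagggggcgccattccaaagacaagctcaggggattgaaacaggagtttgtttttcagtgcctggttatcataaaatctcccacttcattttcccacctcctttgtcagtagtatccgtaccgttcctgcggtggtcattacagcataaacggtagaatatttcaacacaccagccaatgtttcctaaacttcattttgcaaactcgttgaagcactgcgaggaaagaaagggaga
Windows were given for 8 of the 10 members, 11 windows in all (Tlr4 and Ly96 had none). Tlr2 held matches to the NF-kB consensus at bases -173 to -164 and -172 to -163, which overlap, and at -8 to 1, counting the start base as 0. That consensus was found in 8.46% of all 32851 windows of this length, and among the members only in those of Tlr2 and Tlr3 (at -211 to -202). The PU.1 motif GAGGAAGT, in 3.20% of all windows, was found at -23 to -16 of Tlr1 and at 10 to 17 of Tlr9. The AP-1 motif TGANTCA, in 7.81% of all windows, was found at -58 to -52 of Tlr9. No member window held the interferon-stimulated response element, which 1.60% of all windows held, and the Myd88 and Irak3 windows held none of the 4 motifs.

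After LPS, Irak3 and Myd88 were higher in both genotypes, while Tlr1 and Tlr2 were called higher in cGAS-/- cells. No member was called lower. In limma fitted to log2(TPM + 1) over all 12 samples, 2 of 10 members had an adjusted p under 0.05 in WT cells, both higher, where 4.31% of all genes tested were called higher and 23.3% lower. Among cGAS-/- samples 4 of 10 were called, all higher, beside 4.76% of all genes called higher and 9.06% lower. Past a log2 fold change of 2 there were Irak3 in WT cells (1.43% of all genes were called that far higher) and Tlr1, Tlr2 and Irak3 in cGAS-/- cells (1.94%). The median log2 fold change of the 10 members was 0.25 in WT and 0.38 in cGAS-/- cells, beside -0.46 and -0.20 over all genes tested. With TMM factors, which rescale each sample by its middle genes, the medians over all genes were -0.11 and 0.00 and those of the members 0.83 and 0.69. Rescaled to a common total, the members' medians were -0.02 and 0.30, beside -0.61 and -0.25 over all genes. The LPS and UT samples did not overlap for 38.2% of all genes tested in WT and 55.7% in cGAS-/- cells.

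**Figure D1:**
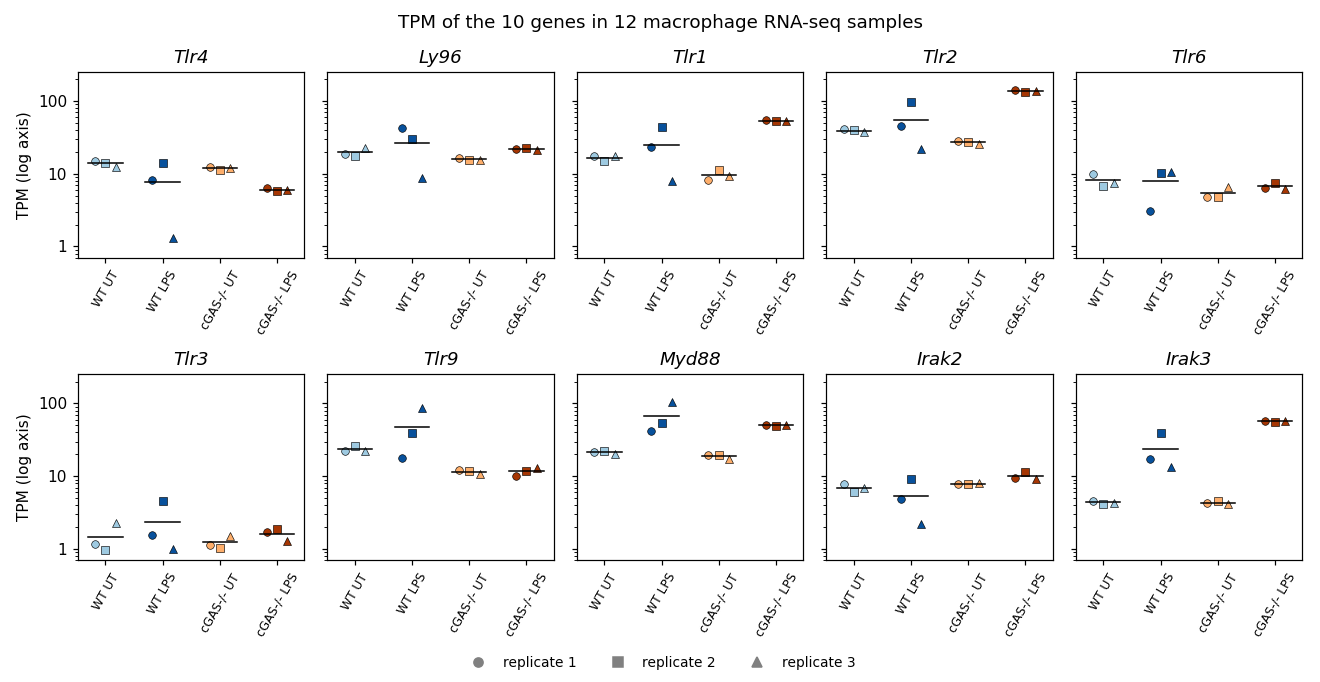
TPM (log axis) of the 10 genes in each of the 12 samples, by group, with 1 symbol per replicate and a line at the group mean. The WT LPS samples are spread widely, from 1.30 to 13.8 TPM for Tlr4, while the cGAS-/- LPS samples lie close together, from 5.76 to 6.25 TPM.

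Tlr4, the LPS receptor (chromosome 4, 66745783 to 66849936, plus strand of GRCm39), lay at 15, 14.2 and 12.2 TPM in WT UT and at 8.12, 13.8 and 1.30 TPM in WT LPS. The cGAS-/- values were 12.4, 11.3 and 12 TPM without and 6.25, 5.76 and 6.0 TPM with LPS. Every cGAS-/- LPS sample was below every UT sample of that genotype, whereas in WT cells the groups overlapped through WT LPS replicate 2. Tlr4 changed with LPS by -1.12 on the log2 scale in WT (standard error 0.52, adjusted p = 0.122 in limma) and -0.88 in cGAS-/- cells (standard error 0.52, limma adjusted p = 0.339). Both intervals included 0, from -2.26 to 0.01 and from -2.02 to 0.26. These standard errors share one estimate of the spread over the 4 groups, to which the WT LPS samples contribute. In a limma fit of the 6 cGAS-/- samples alone, Tlr4 fell by 0.88 on the log2 scale with an adjusted p of 0.000114, but in that fit 32.0% of all genes were called lower. Without WT LPS replicate 3 it was called as well (adjusted p = 0.00266), beside 21.9% of all genes lower. In WT cells the value depended on which WT LPS sample was left out. Without WT LPS replicate 2 it was -1.69 (limma adjusted p = 0.012, beside 44.0% of all genes lower), and without replicate 3 it was -0.34 (limma adjusted p = 0.174).

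Ly96 (chromosome 1, 16758275 to 16779961, plus strand), whose protein holds LPS in the receptor complex, lay at 18.6, 17.7 and 22.3 TPM in WT UT and at 42.0, 29.5 and 8.66 TPM in WT LPS. The knockout cells had 16.3, 15.3 and 15.4 TPM without and 22.0, 22.5 and 20.8 TPM with LPS. With LPS, 5 of the 6 samples were above all UT samples of their genotype, the exception being WT LPS replicate 3. Its log2 fold change with LPS was 0.19 in WT (SE 0.44, limma adjusted p = 0.759) and 0.45 in cGAS-/- cells (limma adjusted p = 0.608). Without WT LPS replicate 3 it was 0.82 in WT cells (limma adjusted p = 0.00269) and 0.45 in cGAS-/- cells (adjusted p = 0.032), where 8.30% and 9.27% of all genes were called higher. Its sign in WT cells turned to -0.25 without replicate 1 and to -0.07 when samples were rescaled to a common total.

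Both parts of the receptor were also compared within each sample, where a scaling of the sample cancels out of the TPM ratio and nearly so from the tested log2 ratio of TPM + 1. The values were taken to be averages over a number of transcripts that differs between genes. Only changes of a ratio between samples were therefore read, not its size. The TPM ratio of Ly96 to Tlr4 was 1.24, 1.25 and 1.82 in WT UT and 5.17, 2.13 and 6.65 in WT LPS. It was 1.31, 1.35 and 1.29 in cGAS-/- UT and 3.52, 3.91 and 3.47 in cGAS-/- LPS. Every LPS sample, WT LPS replicate 3 included, was above every UT sample, as were the ratios to Tlr4 of 10.3% of the 11886 other genes tested. The log2 fold change of Tlr4 itself was -1.12 and -0.88, and the median gene's log2 ratio to it was higher by 0.68 on average over the genotypes. On the log2(TPM + 1) scale the ratio was higher with LPS by 1.31 in WT and by 1.33 in cGAS-/- cells, and rose by 1.32 on average over the genotypes (exact permutation test within genotype, two-sided, p = 0.005, the smallest that its 400 relabellings allow). Adjusted over the 3 ratios tested, the p was 0.005. The value was larger for 13.2% of the other genes.

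Of the other surface receptors, Tlr2 and its partner Tlr1 were called, both in cGAS-/- cells. Tlr2 (chromosome 3, 83743576 to 83749074, minus strand) lay at 40.4, 39.6 and 37.3 TPM in WT UT and at 44.9, 96.1 and 21.6 TPM in WT LPS. Tlr2 in cGAS-/- cells was at 28.2, 27.4 and 25.5 TPM without and at 140.8, 133.3 and 135.6 TPM with LPS. The cGAS-/- LPS samples were above all other samples, and WT LPS reached from below to above its UT samples. Its log2 fold change in cGAS-/- cells was 2.30 (SE 0.41, limma adjusted p = 0.00314), a 4.91-fold rise. The WT value was 0.22 (SE 0.41, limma adjusted p = 0.706). With WT LPS replicate 3 left out the WT value was 0.73 (limma adjusted p = 0.0402), and without replicate 2 it was -0.32. With TMM factors and all 12 samples it was 0.85 (limma adjusted p = 0.0362), beside 7.43% of all genes called higher.

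Tlr1 (chromosome 5, 65082022 to 65090941, minus strand) followed the same course. It lay at 17.4, 15 and 17.4 TPM in WT UT and at 23.0, 44.0 and 8.02 TPM in WT LPS. Knockout cells had 8.20, 11.1 and 9.23 TPM without and 55.2, 53.3 and 52.1 TPM with LPS. As for Tlr2, the cGAS-/- LPS samples were the highest and WT LPS replicate 3 the lowest of its genotype. LPS raised it by 2.38 on the log2 scale in cGAS-/- cells (SE 0.45, limma adjusted p = 0.00448) while the WT value was 0.28 (limma adjusted p = 0.652). Leaving out WT LPS replicate 3 gave 0.90 in WT cells (limma adjusted p = 0.0132), and without replicate 2 it was -0.26.

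The levels of Tlr1 and Tlr2 ran in parallel over the samples. Among the tested genes Tlr1 was the nearest to Tlr2 by the root mean squared difference of log2(TPM + 1) over the 12 samples, each gene centred on its own mean. That difference was 0.179 for Tlr1, 0.180 for 2310043P16Rik and 0.189 for Gpr85, beside a median of 1.08 over all tested genes. Tlr1 shares 17.8% of its transcript sequence, in stretches of 31 bases, with Tlr6 and none with Tlr2.

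Tlr6 (chromosome 5, 65108704 to 65203497, minus strand), the other partner of Tlr2, was not called after LPS. It ranged from 6.74 to 9.95 TPM in WT UT, from 3.11 to 10.4 TPM in WT LPS, from 4.76 to 6.56 TPM in cGAS-/- UT and from 6.25 to 7.37 TPM in cGAS-/- LPS. LPS and UT samples overlapped in both genotypes, and the log2 fold change was -0.14 in WT (limma adjusted p = 0.776) and 0.28 in cGAS-/- cells (limma adjusted p = 0.719). Reads of Tlr6 and Tlr1 can be confused over the sequence they share, which is 12.5% of Tlr6.

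Within a sample, the TPM ratio of Tlr2 to Tlr4 was 2.70, 2.79 and 3.05 in WT UT and 5.53, 6.94 and 16.6 in WT LPS. It was 2.27, 2.42 and 2.13 in cGAS-/- UT and 22.5, 23.2 and 22.6 in cGAS-/- LPS. All 6 LPS samples were above all 6 UT samples, and with LPS the cGAS-/- samples were above the WT samples. The log2 ratio was higher by 1.34 in WT and by 3.18 in cGAS-/- cells, and rose on average by 2.26 (exact permutation test within genotype, two-sided, p = 0.005, adjusted p = 0.005), with a larger value in 3.37% of the other genes. The difference between the genotypes was not tested for the ratios.

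**Figure D2:**
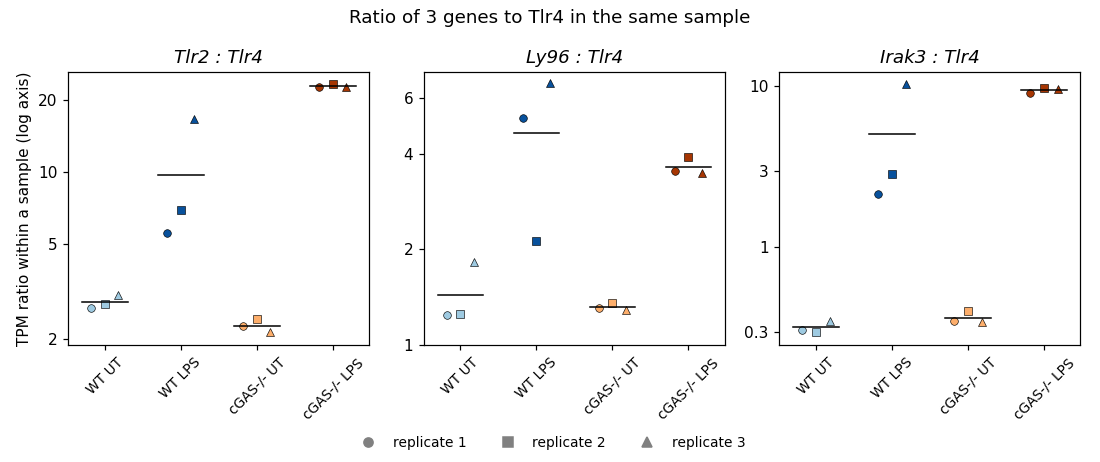
TPM ratio of Tlr2, Ly96 and Irak3 to Tlr4 in the same sample (log axes, each with its own range), by group, with 1 symbol per replicate and a line at the group mean. In each panel the 6 LPS samples lie above the 6 UT samples, for Irak3 between 2.14 and 10.3 against 0.297 to 0.403.

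The endosomal receptors were not called after LPS in the fit to the values as deposited. Tlr9 (chromosome 9, 106099797 to 106104082, plus strand) lay at 21.9, 26.0 and 22.4 TPM in WT UT and at 18.1, 39.8 and 85.8 TPM in WT LPS. For cGAS-/- cells the values were 12.3, 11.7 and 10.8 TPM without and 10.0, 11.9 and 13 TPM with LPS. Every cGAS-/- sample was thus below every WT sample. Tlr9 was highest in WT LPS replicate 3, as Myd88 and Tlr6 also were. LPS minus UT was 0.74 on the log2 scale in WT (standard error 0.43, limma adjusted p = 0.208) and 0.00 in cGAS-/- cells (interval -0.95 to 0.94, limma adjusted p = 1). Leaving out WT LPS replicate 1 gave 1.29 in WT cells (limma adjusted p = 0.0134), and without replicate 3 it was 0.19.

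Between genotypes, the log2 difference of Tlr9 (cGAS-/- minus WT) was -0.95 in UT (standard error 0.43, limma adjusted p = 0.608) and -1.69 with LPS (standard error 0.43, limma adjusted p = 0.0773). In a limma fit of the 6 UT samples alone the first had an adjusted p of 0.00275, and leaving out WT LPS replicate 3 gave 0.0489 (7.07% and 4.28% of all genes were called lower). The second was called whichever WT LPS sample was left out, at -2.24 (limma adjusted p = 0.00443) without replicate 1, -1.69 (0.032) without replicate 2 and -1.15 (0.0265) without replicate 3 (1.65%, 3.96% and 4.39% of all genes were called lower). It was not called when any of the other 9 samples was left out, and in all it was called under 5 of 25 alternatives. B cells also express Tlr9. The 7 measured B cell markers summed to 67.5 to 99 TPM in WT UT, 30.3 to 40.4 in WT LPS, 4.76 to 11.7 in cGAS-/- UT and 2.99 to 8.07 in cGAS-/- LPS. Most of this sum was Igkc, an immunoglobulin light chain gene. Pax5, a transcription factor that defines B cells, did not exceed 0.0221 TPM in any sample. Within WT cells the sum was lower in every LPS than in every UT sample, whereas Tlr9 was above all UT samples in 2 of the 3 LPS samples. The 4 B cell markers tested went different ways with LPS in WT cells. Cd79a, a B cell receptor subunit, was called higher (0.85, limma adjusted p = 0.0368), beside 4.31% of all genes. It was highest in WT LPS replicate 3 (2.49 TPM). Igkc was called lower (-1.27, limma adjusted p = 0.043), beside 23.3%, and Cd22 (-0.37) and Cd79b (-0.13) were not called. In cGAS-/- against WT cells, Cd79a was -0.19 in UT, not called, and -1.25 with LPS (limma adjusted p = 0.0379). Igkc was called lower in both, at -3.52 (0.00101) and -2.92 (0.00508). The part of B cells in the genotype difference was not tested.

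Tlr3 (chromosome 8, 45848702 to 45864117, minus strand) ranged from 0.986 to 4.58 TPM over the 12 samples, with both ends in WT cells. LPS minus UT on the log2 scale was 0.34 in WT (limma adjusted p = 0.46) and 0.23 in cGAS-/- cells (limma adjusted p = 0.756), with overlapping groups in both. With quantile normalization the WT value was 0.86 and called (limma adjusted p = 0.0287), where 8.13% of all genes were called higher. At these levels the added 1 in log2(TPM + 1) shrinks any difference.

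Myd88 (chromosome 9, 119165000 to 119170486, minus strand), the shared adaptor, was called higher in both genotypes. It lay at 21.3, 22.2 and 20.1 TPM in WT UT and at 42.3, 54.5 and 106 TPM in WT LPS. It was, in cGAS-/- cells, at 19.9, 19.3 and 17.2 TPM without and at 50.1, 48.8 and 50.9 TPM with LPS. All LPS samples were above all UT samples. Its rise on the log2 scale was 1.52 in WT (SE 0.30, limma adjusted p = 0.0045) and 1.36 in cGAS-/- cells (SE 0.30, limma adjusted p = 0.0112). The difference between these rises was -0.15, with an interval from -1.10 to 0.79. From the 6 WT samples alone the adjusted p was 0.0971, and without cGAS-/- UT replicate 3 that of the rise in cGAS-/- cells was 0.0515. The rise in WT cells was 1.14 without WT LPS replicate 3 (limma adjusted p = 8.93e-05). Counted on either strand, Myd88 shares 14.0% of its transcript sequence with its neighbour Acaa1a, a peroxisomal enzyme gene. This count does not tell sense from antisense sequence. Acaa1a lay at 9.11 to 9.83 TPM in WT UT, 13.5 to 37.1 in WT LPS, 6.76 to 8.26 in cGAS-/- UT and 17.0 to 17.3 in cGAS-/- LPS.

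Irak2, a kinase family member that carries the Myd88 signal onward, ranged from 6.04 to 7.86 TPM in WT UT and from 2.21 to 9.22 TPM in WT LPS (chromosome 6, 113615386 to 113672470, plus strand). Its range in cGAS-/- cells was from 7.77 to 7.96 TPM without and from 9.23 to 11.4 TPM with LPS. LPS moved it by -0.45 on the log2 scale in WT (limma adjusted p = 0.334) and 0.31 in cGAS-/- cells (limma adjusted p = 0.659). In a limma fit of the 6 cGAS-/- samples alone the latter had an adjusted p of 0.0339, where 12.7% of all genes were called higher. The WT value was -0.86 without WT LPS replicate 2 (adjusted p = 0.0156). Irak2 shares 23.0% of its transcript sequence with other annotated genes.

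The inhibitor Irak3 (chromosome 10, 119975568 to 120038035, minus strand) had the largest LPS effect of the 10 members in both genotypes in the fit to all 12 samples, though in WT cells Myd88 (1.62) and Tlr4 (-1.69) passed it (1.59) without WT LPS replicate 2. It lay at 4.63, 4.22 and 4.31 TPM in WT UT and at 17.4, 39.5 and 13.3 TPM in WT LPS. Corresponding cGAS-/- samples had 4.36, 4.57 and 4.14 TPM without and 57.1, 55.9 and 57.6 TPM with LPS. The UT samples of both genotypes had nearly the same level, all LPS samples were above them, and the cGAS-/- LPS samples were above the WT LPS samples. On the log2 scale the rise was 2.03 in WT (SE 0.33, limma adjusted p = 0.00119) and 3.43 in cGAS-/- cells (SE 0.33, limma adjusted p = 3.98e-05), rises of 4.09-fold and 10.8-fold on the log2(TPM + 1) scale. The rise in WT cells was 2.34 without WT LPS replicate 3, and from the 6 WT samples alone its adjusted p was 0.0503.

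The TPM ratio of the inhibitor to the LPS receptor, Irak3 to Tlr4, was 0.309, 0.297 and 0.352 in WT UT and 2.14, 2.85 and 10.3 in WT LPS. It was 0.351, 0.403 and 0.346 in cGAS-/- UT and 9.14, 9.70 and 9.60 in cGAS-/- LPS. The log2 ratio was higher by 3.16 in WT and by 4.32 in cGAS-/- cells, and rose on average by 3.74 (exact permutation test within genotype, two-sided, p = 0.005, adjusted p = 0.005), with a larger value in 0.799% of the other genes. The genes whose pattern over the samples was nearest to Irak3 were Acsl1 (0.282), Gm20559 (0.288) and Ctsc (0.328), with the median of all tested genes at 1.65. Nearest to Tlr4 were Ehd4 (0.132), Rufy3 (0.142) and Jun (0.154), with the median at 0.683.

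**Figure D3:**
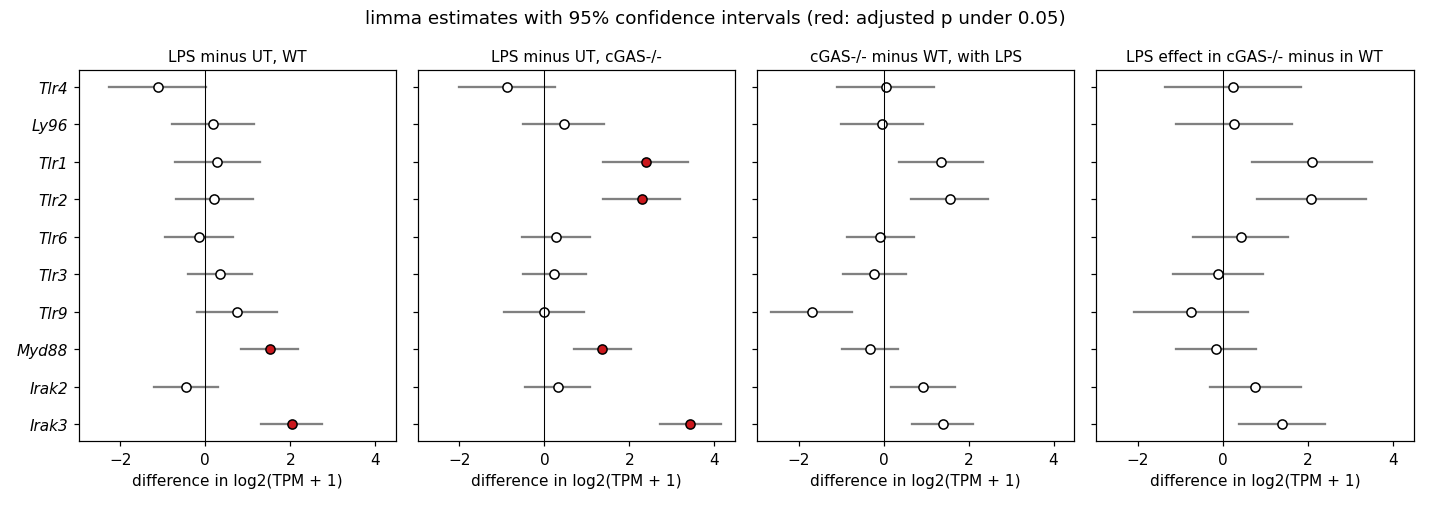
limma estimates on the log2(TPM + 1) scale with 95% confidence intervals for the 10 genes, in 4 comparisons, with filled red points where the adjusted p was under 0.05. Filled points stand for 2 genes in WT and 4 in cGAS-/- cells after LPS, and there are none in the other 2 comparisons.

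Between genotypes no member was called. In UT cells 0 of 10 had an adjusted p under 0.05 in limma (1 had an unadjusted p under 0.05, Tlr9, beside 8.08% of all genes), where 1.83% of all genes tested were called. From the 6 UT samples alone 3 were called lower in cGAS-/- cells (beside 7.07% of all genes). They were Tlr9 with Tlr1 at -0.75 (limma adjusted p = 0.0172) and Tlr2 at -0.52 (limma adjusted p = 0.00541). The 3 cGAS-/- samples were below the WT samples for each of these, and also for Ly96, Myd88 and Tlr6. In this comparison 30.5% of all genes tested did not overlap. Neutrophil markers differed the same way in UT cells: 3 of the 7 tested were called lower in cGAS-/- cells, Ngp at -3.34 (limma adjusted p = 0.00186), Elane at -0.89 (0.0311) and Ltf at -0.95 (0.00299). Macrophage markers went both ways. Mrc1 was called lower in UT and with LPS, at -1.683 (limma adjusted p = 0.0121) and -1.990 (0.00582). Cx3cr1 was called higher in both, at 1.365 (0.00645) and 1.891 (0.00112), and Lyz2 with LPS, at 0.801 (0.0366). The part of these cell types in the differences of Tlr9, Tlr1 and Tlr2 was not tested. With LPS 0 of 10 were called (5 had an unadjusted p under 0.05, beside 18.8% of all genes), where 2.36% of all genes were called. The log2 difference, cGAS-/- minus WT, was 1.39 for Irak3 (standard error 0.33, limma adjusted p = 0.053), 1.56 for Tlr2 (0.41, adjusted p = 0.0874), 1.35 for Tlr1 (0.45, adjusted p = 0.161) and 0.93 for Irak2 (0.35, adjusted p = 0.199). For these 4 genes and Tlr9 the samples of the genotypes did not overlap, beside 17.7% of all genes tested.

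These LPS values rest on the WT LPS samples. Without WT LPS replicate 3 the difference was 1.08 for Irak3 (limma adjusted p = 0.0299), 1.04 for Tlr2 (0.028) and 0.73 for Tlr1 (0.0879), where 3.87% of all genes were called higher and 4.39% lower. Without replicate 2 it was 1.83, 2.09 and 1.89, with limma adjusted p of 0.000334, 0.00149 and 0.00514, and 1.34 for Irak2 (0.00503), but 24.5% of all genes were then called higher. With TMM factors Irak3 and Tlr2 were called, at 1.17 (limma adjusted p = 0.00705) and 1.33 (0.0147), beside 2.67% of all genes higher, and with quantile normalization too, at 1.17 (0.00826) and 1.45 (0.0228), beside 2.78%. Tlr4 and Ly96, at 0.05 and -0.03, had no stable direction, and without WT LPS replicate 3 they were -0.73 (limma adjusted p = 0.0393) and -0.67 (0.0264). Myd88 differed by -0.32 (interval -0.99 to 0.35).

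The LPS effect in cGAS-/- minus that in WT cells was 2.10 for Tlr1 (standard error 0.64, limma interaction term, adjusted p = 0.221), 2.08 for Tlr2 (0.58, adjusted p = 0.171) and 1.40 for Irak3 (0.46, adjusted p = 0.263), none past the threshold. Of the 10 members 0 were called (3 had an unadjusted p under 0.05, beside 11.1% of all genes), where 0.900% of all genes were called. Leaving out WT LPS replicate 3, Tlr1 at 1.48 (limma adjusted p = 0.0267) and Tlr2 at 1.56 (0.0272) were called, beside 2.95% of all genes higher. With TMM factors Tlr2 was called at 1.77 (0.0445), beside 0.866% of all genes higher. Without replicate 2 they were 2.64 and 2.61, and Irak3 at 1.84 (0.0024) and Irak2 at 1.17 (0.0456) were called as well, beside 11.8% of all genes higher. The LPS comparison of each genotype, the genotype comparisons and this difference share samples, so they do not support each other independently.

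Of 52 other genes of the pathway listed by role, 33 are in the table and 27 passed the filter on low values, and the other 19 were not analysed here, Cd14 and Ticam1 among them. Tlr12 was listed at 0 in all samples and Tlr5 did not exceed 0.207 TPM. After LPS 5 of 27 were called higher and 1 lower in WT cells (4.31% and 23.3% of all genes), and 6 higher and 0 lower in cGAS-/- cells (4.76% and 9.06%). Irf7, a transcription factor of interferon genes, rose by 4.46 in WT (limma adjusted p = 4.57e-05) and by 5.42 in cGAS-/- cells (1.27e-05) on the log2 scale. Nfkbia, which holds NF-kB in the cytosol, rose by 1.87 (limma adjusted p = 0.000327) and 2.73 (2.72e-05). Ikbke, a kinase upstream of interferon factors, rose by 1.18 in WT (limma adjusted p = 0.00681) and by 2.29 in cGAS-/- cells (0.000115). Zc3h12a, an RNase that degrades cytokine mRNA, rose by 2.32 in cGAS-/- cells (limma adjusted p = 0.0022). Its WT value was 0.795 and not called (0.146). The 1 called lower was Cd36, a scavenger receptor and co-receptor of Tlr2, which fell by 1.86 in WT cells (limma adjusted p = 0.00156). Its value in cGAS-/- cells was -0.725 and not called (0.172). Between genotypes 0 of 27 were called in UT cells and 0 with LPS, with 2 and 10 at an unadjusted p under 0.05, beside 8.08% and 18.8% of all genes.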

How the data were processed

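The authors trimmed, mapped and quantified reads of stranded mRNA libraries with fastp, STAR and kallisto on GRCm39, as the methods and the submitters' processing notes state, with no versions given in the sources used here. The deposited values were taken as TPM that the authors averaged over the transcripts of each symbol, a unit read from the decimals since no source names it. The decimals of Tlr2 and Tlr9 fit a single transcript and those of Tlr4 an average of 2. Those of Ly96, Tlr1 and Myd88 fit an average of 3. Levels of different genes were therefore not ranked, and the size of a ratio between genes was not read. The read depth is unknown, so counting error could not be given.

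The members and lists were chosen with earlier results of these data known. The filter on low values, for which alone samples were scaled to a total of 1000000, kept the 11887 genes that reached 1 TPM in 3 or more of the 12 samples. limma 3.58.1 in R 4.3.3 was fitted to log2(TPM + 1) with a mean per group and a variance trend, and a call needed an adjusted p (Benjamini-Hochberg over all genes tested) under 0.05. Fold changes on this scale understate changes of low genes. Ratios were tested by an exact permutation within genotype. Both were tested on simulated data. Named were all members, up to 3 risers and 3 fallers among the called genes of the wider pathway in each comparison, and the 3 genes nearest to Tlr4, Tlr2 and Irak3. Pax5, Igkc, Cd79a, Cd79b, Cd22, Lyz2, Mrc1, Cd68, Cx3cr1, Fcgr1, Itgam, Bst2, Itgax and Xcr1 were named after their values or coverage were seen. So were Ngp, Elane, Ltf, Camp, Mmp8, S100a8, S100a9, Acaa1a, Tlr5, Tlr12, Cd14, Ticam1, Irg1 and Acod1. The alternatives tried were a pseudocount of 0.1 or 5, no filter or one of 5 TPM, TMM factors, a common total, quantile normalization, sample weights, no trend, protein-coding genes, the compared samples alone, a replicate block and each sample left out. Leaving out WT LPS replicate 3 with TMM factors was chosen after seeing the data. Gene positions are from GENCODE on GRCm39. Shared sequence was counted in 31-base stretches of its transcripts on either strand, so antisense sequence is included. Same-numbered samples were not paired: over 18 pairs, deviations from group means correlated at -0.035 to 0.047. Python 3.11.15 was used for the rest.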

Additional observations from a re-analysis of the deposited data

How the results depend on the processing

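For the Toll-like receptor genes, the number called differed between the alternatives, and the share of all genes called (in brackets) moved too. In WT cells after LPS it was 2 (27.6%), then 0 from the compared samples alone (6.02%) and 3 each with TMM factors (19.5%) and quantile normalization (20.6%). It was 7 with TMM factors leaving out WT LPS replicate 3 (31.3%). With 1 sample left out it was 2 to 5: 3 without WT LPS replicate 1 (28.7%), 4 without replicate 2 (49.6%) and 5 without replicate 3 (35.2%). In cGAS-/- cells it was 4 (13.8%), then 7 with sample weights (48.3%), 7 from the compared samples alone (44.6%) and 7 with TMM factors leaving out WT LPS replicate 3 (30.1%). With 1 sample left out it was 3 to 6: 3 without cGAS-/- UT replicate 3 (9.20%) and 6 without WT LPS replicate 3 (31.2%). Between genotypes in UT cells it was 0 (1.83%), then 3 with sample weights (11.5%), 3 from the compared samples alone (10.4%) and 2 with TMM factors leaving out WT LPS replicate 3 (6.30%). With 1 sample left out it was 0 to 1: 1 without WT LPS replicate 3 (5.50%). Between genotypes with LPS it was 0 (2.36%), then 1 each with a pseudocount of 5, the filter of 5 TPM, no trend and protein-coding genes only (2.31% to 3.07%). It was 2 with TMM factors (4.27%), 3 with quantile normalization (4.64%), 2 with sample weights (2.49%) and 6 with TMM factors leaving out WT LPS replicate 3 (14.6%). With 1 sample left out it was 0 to 5: 1 without WT LPS replicate 1 (2.87%), 5 without replicate 2 (28.5%) and 5 without replicate 3 (8.27%). For the difference of the LPS effects it was 0 (0.900%), then 1 with TMM factors (1.17%), 3 with sample weights (2.46%) and 4 with TMM factors leaving out WT LPS replicate 3 (6.82%). With 1 sample left out it was 0 to 4: 4 without WT LPS replicate 2 (13.1%) and 2 without replicate 3 (4.56%). The cause was not tested. With the replicate block the counts were 2, 4, 0, 0 and 0, as without it, and the ratios to Tlr4 kept their values (adjusted p = 0.03125, the smallest that 64 exact relabellings allow).

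Direction turned in values that were not called in the fit to all 12 samples. Without WT LPS replicate 3, Ly96, Tlr1 and Tlr2 in WT cells and Tlr4 and Ly96 between genotypes with LPS were called, at the value of largest size among those with 1 sample left out. For LPS in WT cells, Tlr4 was 0.019 with TMM factors leaving out WT LPS replicate 3, Ly96 -0.074 and Tlr2 -0.062 with a common total, and Irak2 0.075 with TMM factors, 0.068 with quantile normalization and 0.31 with TMM factors leaving out WT LPS replicate 3. When 1 sample was left out, Ly96 ranged from -0.25 to 0.82, Tlr1 from -0.26 to 0.90, Tlr2 from -0.32 to 0.73 and Tlr3 from -0.10 to 0.65. Between genotypes with LPS, Tlr4 was -0.075 with a pseudocount of 5, -0.10 with TMM factors, -0.20 with quantile normalization, -0.46 with sample weights, -0.73 with TMM factors leaving out WT LPS replicate 3 and -0.73 to 0.61 when 1 sample was left out, and Ly96 was 0.078 with a common total and -0.67 to 0.41 when 1 sample was left out. In the difference of the LPS effects, Tlr4 was -0.044 with quantile normalization, -0.26 with sample weights, -0.61 with TMM factors leaving out WT LPS replicate 3 and -0.54 to 0.81 when 1 sample was left out.

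Tlr1, Tlr2 and Irak3 after LPS in cGAS-/- cells stayed called under all 25 alternatives, at 2.02 to 2.70, 2.14 to 2.62 and 2.73 to 3.74. The rises of Myd88 in both genotypes and of Irak3 in WT cells were each lost under 1 of 25. The log2 ratios to Tlr4 had p-values at or near the smallest possible under each alternative, which says little of their stability; with pseudocounts of 0.1 and 5 they were 2.44 and 1.84 for Tlr2, 1.49 and 0.94 for Ly96, and 4.12 and 2.76 for Irak3. The read depth is unknown, and Tlr3 lay near 1 TPM in most samples.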

Other observations

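As a check of the treatment label, 11 of 13 listed symbols of genes known to be induced by LPS are in the table. The absent symbols, Irg1 and Acod1, name the same gene. The summed level of those present was 84.1 to 135 TPM in WT UT, 7805 to 47230 in WT LPS, 61.3 to 162 in cGAS-/- UT and 41210 to 42050 in cGAS-/- LPS. In limma 10 of the 10 tested were called higher with LPS in both genotypes (4.31% of all genes in WT and 4.76% in cGAS-/- cells), with a median log2 fold change of 4.19 in WT and 5.34 in cGAS-/- cells, beside -0.46 and -0.20 over all genes. The summed level of the 10 Toll-like receptor genes was 152.7 to 158.3 TPM in WT UT, 205.3 to 341.3 in WT LPS, 110.4 to 115.3 in cGAS-/- UT and 352.1 to 359.1 in cGAS-/- LPS.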
